A study of Mus musculus with 8 samples.

Results

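The regions described here overlap CpG islands in the genome of mouse microglial nuclei. They were chosen by the region table's own label: every region on chromosomes 1 to 19 whose detailed annotation begins with CpG was a member, which gave 4147 of the 129304 regions listed. Each region is a window of 800 bp. Per the file headers, the windows come from ATAC-seq peaks, sites of open chromatin, that were reproducible and then merged. The label needs a caveat. The table carries it only on windows whose basic annotation is intron (3133 members, 75.5%) or intergenic (1014 members, 24.5%), and 0 members were annotated as promoter, exon, gene end or UTR. The centres of 2458 members (59.3%) lay 100 to 1000 bp downstream of the nearest start site, none lay nearer, and 2727 members were in a first intron. The members are therefore the intronic and intergenic windows of CpG islands, mostly on the downstream side of a promoter. Windows that the table labels as promoters are not among them, although many of those promoters are CpG-rich too.

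A CpG island is a stretch of DNA in which the dinucleotide CG, rare in most of the mammalian genome because methylated cytosine mutates readily, has been kept at high density. Islands span the start sites of most housekeeping genes and many developmental genes, are usually unmethylated, and can hold active or silent chromatin depending on the cell. Acetylation of histone H3 at lysine 27 (H3K27ac) marks active promoters and enhancers; at an active island it flanks the nucleosome-depleted start site, so that the first intron just downstream carries much of the signal. Microglia are the resident macrophages of the brain, and their identity enhancers mostly lie outside islands.

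The study set wild-type (WT) C57BL/6 mice beside C57BL/6 mice without Grn (GrnKO), which encodes progranulin, a secreted protein delivered to lysosomes. Both groups were 2 years old. Brain nuclei were fixed with formaldehyde and sorted as positive for PU.1, a myeloid transcription factor, and negative for OLIG2 and NEUN, which mark oligodendrocyte-lineage and neuronal nuclei. Each genotype had 2 replicates of 2 pooled mice. Chromatin of each pool was sequenced after H3K27ac immunoprecipitation and, as input, without it. The labels name no promoter or cell type to which the deletion was limited. No member was assigned to Grn, so the deletion cannot be read at a member.

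Promoter sequences show the density of CG at these loci. The 150 bases before the start site are printed for genes on which later results turn, 5′ to 3′ on the gene's strand, with each CG in capitals, from RefSeq (GRCm38.p6, the same assembly as mm10). Fnip1 (chr11:54438029-54438178, plus strand) and Flt1 (chr5:147726012-147726161, minus strand) had members higher in GrnKO, App (chr16:85173708-85173857, minus strand) had one lower, Cmtm7 (chr9:114781994-114782143, minus strand) had the highest WT level, Gata2 (chr6:88193741-88193890, plus strand) was a silent developmental gene, and Cx3cr1 (chr9:120068297-120068446, minus strand) is a microglial identity gene with no member, for contrast.
Fnip1: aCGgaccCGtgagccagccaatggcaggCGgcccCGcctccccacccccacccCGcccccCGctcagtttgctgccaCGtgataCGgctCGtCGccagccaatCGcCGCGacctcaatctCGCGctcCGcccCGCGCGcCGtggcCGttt
Flt1: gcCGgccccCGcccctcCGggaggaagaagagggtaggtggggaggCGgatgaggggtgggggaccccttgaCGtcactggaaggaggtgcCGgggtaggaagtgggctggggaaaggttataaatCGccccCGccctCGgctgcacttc
App: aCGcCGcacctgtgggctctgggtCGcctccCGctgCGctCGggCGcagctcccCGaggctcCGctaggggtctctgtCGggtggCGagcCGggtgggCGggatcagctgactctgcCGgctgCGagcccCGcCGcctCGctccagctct
Cmtm7: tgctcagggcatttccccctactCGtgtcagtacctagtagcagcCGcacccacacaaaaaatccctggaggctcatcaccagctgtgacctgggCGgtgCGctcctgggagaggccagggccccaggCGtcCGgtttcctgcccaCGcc
Gata2: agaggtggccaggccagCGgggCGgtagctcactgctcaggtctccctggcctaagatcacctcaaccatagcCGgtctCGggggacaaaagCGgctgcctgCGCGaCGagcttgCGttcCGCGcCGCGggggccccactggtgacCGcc
Cx3cr1: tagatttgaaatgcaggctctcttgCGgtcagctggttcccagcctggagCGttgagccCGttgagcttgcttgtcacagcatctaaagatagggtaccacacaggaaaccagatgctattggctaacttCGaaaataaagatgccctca
The stretch before Fnip1 holds 21 CG pairs and that before App 18, against 14 before Gata2, 9 before Flt1, 7 before Cmtm7 and 4 before Cx3cr1. The silent Gata2 promoter is as CpG-dense as promoters that carried acetylation: over the full 300 bases of the table (250 before the start and 50 after) it has 32 CG pairs, beside 34 at Fnip1 and 5 at Cx3cr1.

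Of the 2458 members near a start, 1949 had a promoter in the RefSeq table, and the start matched the table's start within 10 bp for 82.3% of them. Over the 1612 promoters with a member and a start matched within 100 bp, the median GC content was 65.3% and the median ratio of observed to expected CpG was 0.833, beside 53.0% and 0.395 over all 25748 autosomal promoters. By a GC content above 50% and a ratio above 0.6, 85.0% of the members' promoters were island-like, against 34.6% of all promoters and 71.4% of promoters that had a promoter-labelled region. Island-like promoters were thus common on both sides of the label.

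Depth was 15491642.5 to 20030832 tags per H3K27ac library and 4078179 to 14415969 per input. Values below are scaled tags: tags per region per 10000000 tags, then scaled between libraries by TMM (factors 0.825 and 1.04 for the WT pools, 1.08 for both GrnKO pools). A count of 3 tags, the floor used here, ranged from 1.38 to 2.35 scaled tags over the 4 libraries; it covers counting error only. Marker genes of microglia had promoter regions at a summed 3275 and 3555 in WT and 2884 and 2826 in GrnKO (11 genes), and those of neurons at 18 and 29.9 in WT and 22.6 and 38.8 in GrnKO (10 genes). Over the 4 libraries the sums were 195 to 260 for 7 oligodendrocyte-lineage genes. For 10 astrocyte genes the WT pools summed to 354 and 269, the GrnKO pools to 259 and 251. For 9 genes of border macrophages and monocytes the WT pools summed to 528 and 629, the GrnKO pools to 749.6 and 679. The medians over these 9 overlapped between genotypes (WT pools 25.4 and 25.9, GrnKO pools 39.3 and 21.7). Of these 9, Ms4a7 was called higher. Among the microglial genes Itgam was called lower, among the neuronal ones Eno2 was called higher, and none of the 3 oligodendrocyte-lineage and 3 astrocyte genes with enough tags for a test was called. Of the neuronal genes 2 could be tested. Among microglial markers the only member near a start was at Irf8, a transcription factor of the lineage, with 215 and 164 in WT against 189 and 193 in GrnKO.

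Acetylation at the members stood well above input. Summed over members, H3K27ac exceeded the input of the same pool 21.1-fold and 29.5-fold in WT and 23.5-fold and 36.7-fold in GrnKO, a mean log2 ratio of 4.76 ± 0.36 (SD, n = 4 pools). All 4 pools were positive, and the exact two-sided sign-flip test gave p = 0.13, the smallest that 4 pools allow. Other autosomal regions exceeded input 10.3-fold and 15.1-fold in WT and 14-fold and 16.3-fold in GrnKO. The input itself was low at the members: between 53.7% and 94.6% of them had 0 input tags in a library. Members held 3.73% and 3.63% of all listed-region tags in WT and 3.68% and 3.75% in GrnKO, and the genotypes overlapped (exact permutation test, two-sided, p = 0.667; 2 libraries against 2 allow no p under 0.33).

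The level of a member followed its place relative to a start. Members 100 to 1000 bp downstream had median values of 33.6 and 32.3 scaled tags in WT and 34.9 and 34.4 in GrnKO, whereas the 730 members over 10000 bp from any start had medians of 5.86 and 4.06 in WT against 3.96 and 3.69 in GrnKO. The near members were higher in all 4 libraries, by 2.71 ± 0.26 (SD, n = 4) on the log2(median + 1) scale (exact sign-flip test, two-sided, p = 0.13, the smallest possible). Beside other intronic and intergenic windows anywhere from 100 to 1000 bp downstream, near members were 1.71-fold higher, and beside such windows over 10000 bp away, far members were 0.587 times as high, each in 4 of 4 libraries with the same exact p of 0.13. The unlabelled windows lay farther out within the first kilobase, and in narrower classes of distance the excess was smaller: 1.31- to 1.67-fold in the 6 classes from 200 to 1000 bp, in 4 of 4 libraries each, and 1.09-fold at 100 to 200 bp, where members were higher in 2 of 4 libraries and equal in 1.

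**Figure D1:**
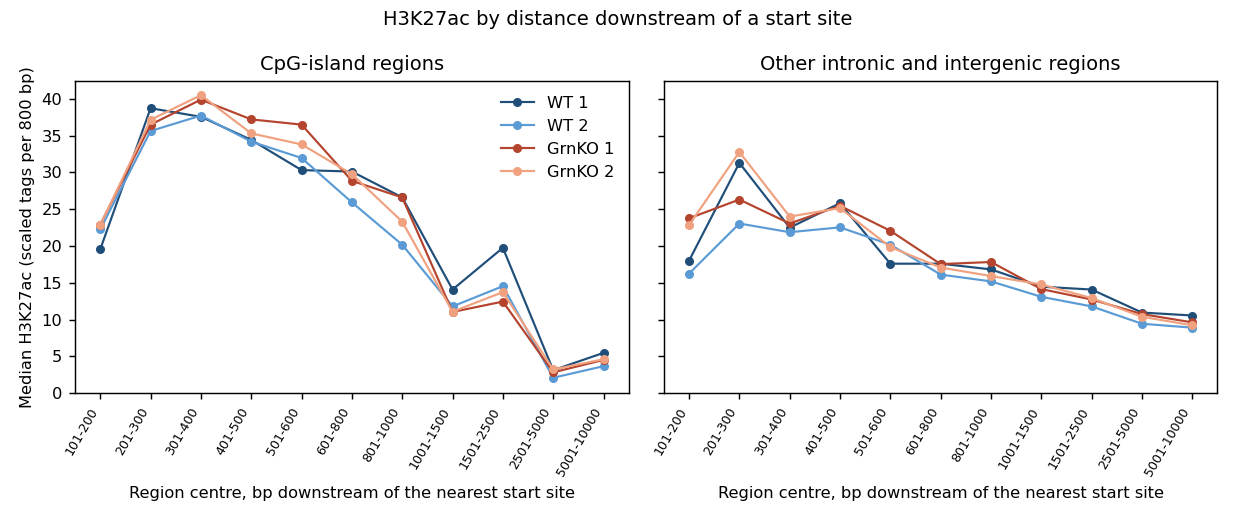
Median H3K27ac (scaled tags per 800 bp window, linear axis) against the distance of the window centre downstream of the nearest start site, for CpG-island regions (left) and other intronic and intergenic regions (right); each line is 1 of the 4 H3K27ac libraries. CpG-island regions peaked 200 to 400 bp downstream and fell to medians of 2.10 to 3.23 at 2500 to 5000 bp, where the other regions kept 9.43 to 10.95.

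Along the first kilobase the members' medians were highest between 200 and 400 bp. At 300 to 400 bp the WT libraries reached 37.5 and 37.7 and the GrnKO libraries 39.9 and 40.5, and at 200 to 300 bp the first WT library was higher still, at 38.7. From 1000 to 2500 bp members and unlabelled windows had similar medians, with members lower in 4 of 4 libraries at 1000 to 1500 bp and in 1 of 4 at 1500 to 2500 bp. Beyond 2500 bp members were well below, as the plot of medians by distance shows. Many members were silent. Of all 4147, 419 (10.1%) had at most 3 tags in every H3K27ac library and 64 had 0 in all of them; among members over 1000 bp from a start the first share was 18.2%, and among near members 4.52%. At the upper end, 228 members averaged 200 scaled tags or more.

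The 5 strongest islands included regulators of the myeloid lineage and broadly used genes. By WT mean the highest was the first intron of Cmtm7, which encodes a MARVEL-domain membrane protein (chr9:114781070-114781870, build mm10, 523 bp downstream of the start). Fli1, an ETS-family transcription factor of blood cells, followed with 649.6 and 744 scaled tags in WT against 739.6 and 744 in GrnKO. Zeb2, a zinc-finger repressor needed for macrophage identity, had 639 and 571 in WT against 495 and 553 in GrnKO. The other 2 were 1700017B05Rik with 609 and 589 in WT against 526 and 597 in GrnKO and the bromodomain gene Brd2 with 609 and 579 in WT against 591 and 593 in GrnKO. Of these 5 only Cmtm7 passed the test between genotypes; Fli1, 1700017B05Rik and Brd2 had overlapping genotypes, and at Zeb2 both GrnKO values were below both WT values without passing (limma adjusted p = 0.303).

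Most CpG-island regions showed no detectable change between genotypes. Of 4147 members, 2882 (69.5%) had enough tags to be tested, and 162 of them (5.62%) passed limma's test at an adjusted p under 0.05 over all 80728 tested regions, against 9.72% of all tested regions. Of the 162, 121 were higher in GrnKO (4.20% of members tested, background 6.8%), at 109 genes, and 41 were lower (1.42%, background 2.92%), at 34 genes. At least a 2-fold change was seen at 94 of the 162. The 162 formed 145 groups of overlapping windows. The median log2 change over tested members was 0.02, beside 0.00 over all tested regions. In all 162 the GrnKO values lay on 1 side of both WT values; such separation occurred in 47.1% of tested members and in 52.7% of all tested regions. Leaving out 1 library makes its genotype a single pool, assumed to vary like the pair that remains. The count was then 286 without WT replicate 1 and 343 without WT replicate 2, where the GrnKO pair gave the spread, and 38 without GrnKO replicate 1 and 59 without GrnKO replicate 2, where the WT pair gave it. The chi-square per degree of freedom between the libraries of a pair was 5.32 in WT and 3.53 in GrnKO. Scaling to library totals only, as the authors did, moved the median over all tested regions to 0.22 and that over members to 0.24, and the calls split into 145 higher and 8 lower. Subtracting the input change left 0 members and 0 of all 80728 tested regions called by limma, with 160 members (5.55%) and 7.58% of all regions at an unadjusted p under 0.05, and 134 of the 162 kept their sign; the members' median standard error then rose from 0.32 to 1.00.

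**Figure D2:**
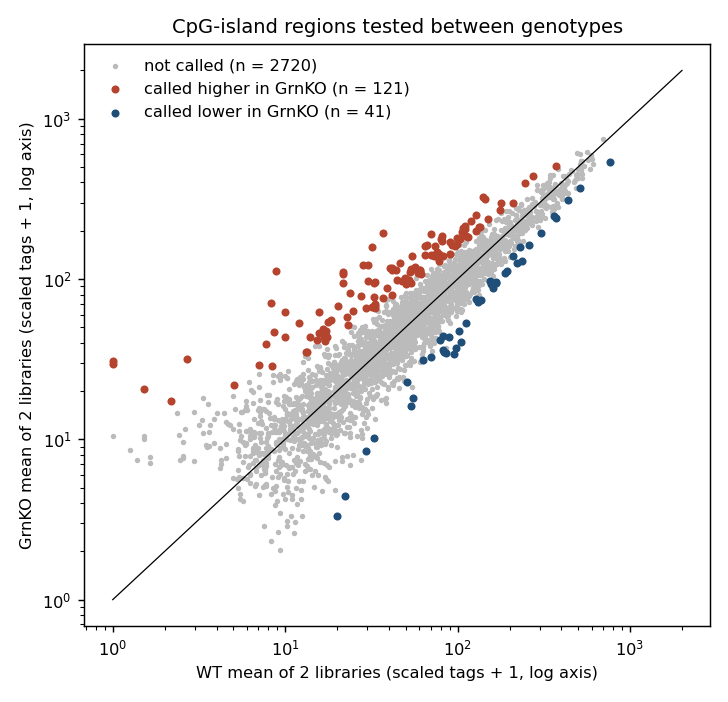
Each point is a tested CpG-island region, at its mean over 2 WT libraries (x axis) and over 2 GrnKO libraries (y axis), in scaled tags + 1 on log axes; red points were called higher and blue points lower in GrnKO, grey points were not called, and the line marks equal values. Most of the 2720 uncalled regions lie along the line, and the 121 higher regions outnumber the 41 lower ones.

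The lower share of calls was seen at most levels of signal, with little difference among the weakest regions. Tested autosomal regions were cut into 10 classes of equal size by mean signal, and in 10 of 10 classes a smaller share of members than of other regions was called. In the lowest class 0 of 146 members were called against 0.27% of other regions, and in the next 3 of 188 (1.60%) against 1.73%. With the other regions weighted to the members' classes, 11.5% of them were called, against 5.62% of members. The share also differed by position. Among other intronic and intergenic windows 100 to 1000 bp downstream of a start, 242 of 2869 (8.43%) were called, and among promoter-labelled regions 4.52%. For protein-coding genes, 104 of 1983 members within 1000 bp of a start (5.24%) were called, beside 906 of 17821 other regions so placed (5.08%). The shares are descriptions, with no test across regions.

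**Figure D3:**
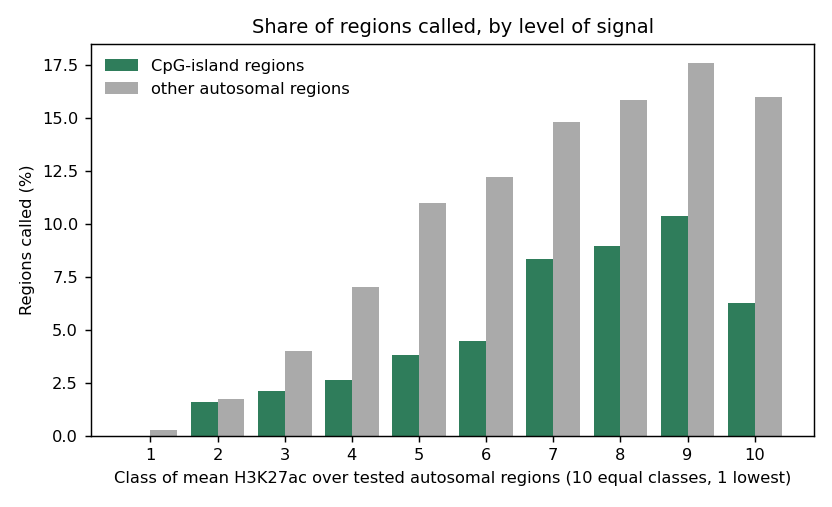
Percent of tested regions called between genotypes (bars from 0), in 10 classes of equal size by mean H3K27ac over all tested autosomal regions, for CpG-island regions (green) and other autosomal regions (grey). The green bar is below the grey one in 10 of 10 classes, but by little in classes 1 (0% against 0.27%) and 2 (1.60% against 1.73%).

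The level of the members as a class, relative to other regions, was compared with 1 value per library. The median log2 value of tested members exceeded that of other autosomal tested regions by 0.51 and 0.49 in WT and by 0.37 and 0.41 in GrnKO. The groups did not overlap, and the difference of -0.11 had an exact permutation p of 0.33, the smallest possible. With no filter on low tags the difference was 0.0075 (exact permutation p = 1). The difference of medians with the filter and the median of the changes (0.02 for members, 0.00 for other autosomal regions) differ in sign. Within classes of equal signal the difference was -0.02. For coding genes the members within 1000 bp of a start exceeded other promoter regions by 0.18 and 0.10 in WT and 0.12 and 0.15 in GrnKO, and the genotypes overlapped (exact permutation p = 1).

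By position, 104 of 2014 near members were called (5.16%), 84 higher (4.17%) and 20 lower (0.993%). Members over 1000 bp from a start had 58 of 868 called (6.68%), 37 higher (4.26%) and 21 lower (2.42%). Of all tested regions 9.72% were called, 6.8% higher and 2.92% lower. Islands over 10000 bp upstream of a start had the highest share of the members' positions, with 23 of 203 called (11.3%), 20 higher and 3 lower; other intronic and intergenic windows over 10000 bp from a start had 12.2% called. The 23 include overlapping windows at Hey1, at Abr, at Iqsec1 and at Klf4. Within 10000000 bp of Grn on chromosome 11, 2 of 48 tested members (4.17%) were called, 1 of them at Stac2.

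Taking 1 window per gene, the 10 higher members with the smallest p had log2 changes from 1.13 to 3.72. The first was in intron 1 of Stac2, which encodes an adaptor of voltage-gated calcium channels (chr11:98052204-98053004, 858 bp downstream of the start). It had 10.6 and 5.24 scaled tags in WT against 103 and 119 in GrnKO, a log2 change of 3.72 ± 0.39 (SE) with limma adjusted p = 1.47e-05. Both GrnKO pools were far above both WT pools. Cxcr4 encodes the receptor of the chemokine CXCL12, and its member (chr1:128591166-128591966, intron 1) had 48.5 and 23.3 scaled tags in WT against 184 and 204 in GrnKO, a log2 change of 2.49 ± 0.29 (SE). The nearest gene to an intergenic island at chr3:8767264-8768064, 100626 bp upstream, was Hey1, a transcriptional repressor downstream of Notch. That island had 37.9 and 23.6 in WT against 169.7 and 143 in GrnKO. Flt1, a receptor of vascular endothelial growth factor, had 7.04 and 11 in WT against 60 and 62.5 in GrnKO in its first intron (chr5:147725250-147726050). All 4 were low in input, between 0 and 12.1 scaled tags in each input library.

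Rragd encodes a Rag GTPase that helps recruit mTORC1, the nutrient-sensing kinase complex, to lysosomes. Its first intron (chr4:32983431-32984231) had 5.86 and 8.64 scaled tags in WT against 73.8 and 66.7 in GrnKO, a log2 change of 3.13 ± 0.42 (SE) with limma adjusted p = 1.11e-04. Fnip1 encodes a partner of folliculin, which acts on those GTPases, and had 144 and 142 in WT against 296 and 333 in GrnKO (chr11:54438160-54438960). The WT pools were nearly equal there, and both GrnKO pools were far above them. Gyg encodes glycogenin, the primer of glycogen synthesis, and had 25.8 and 15.7 in WT against 95.6 and 91.6 in GrnKO. The remaining 3 were Spsb2, a substrate adaptor of a ubiquitin ligase, with 24.2 and 17.3 in WT against 105 and 108 in GrnKO, Ttyh2, a membrane protein of the tweety family, with 23.1 and 18.3 in WT against 86.3 and 134 in GrnKO, and Lrp12, a member of the LDL receptor family, with 70.4 and 67.3 in WT against 205 and 174 in GrnKO. By the rule that chose them the genotypes did not overlap at any of the 10. Their limma adjusted p ran from 1.47e-05 to 4.24e-04. All 10 changes kept their sign without any 1 library, as did those of all 162 calls.

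**Figure D4:**
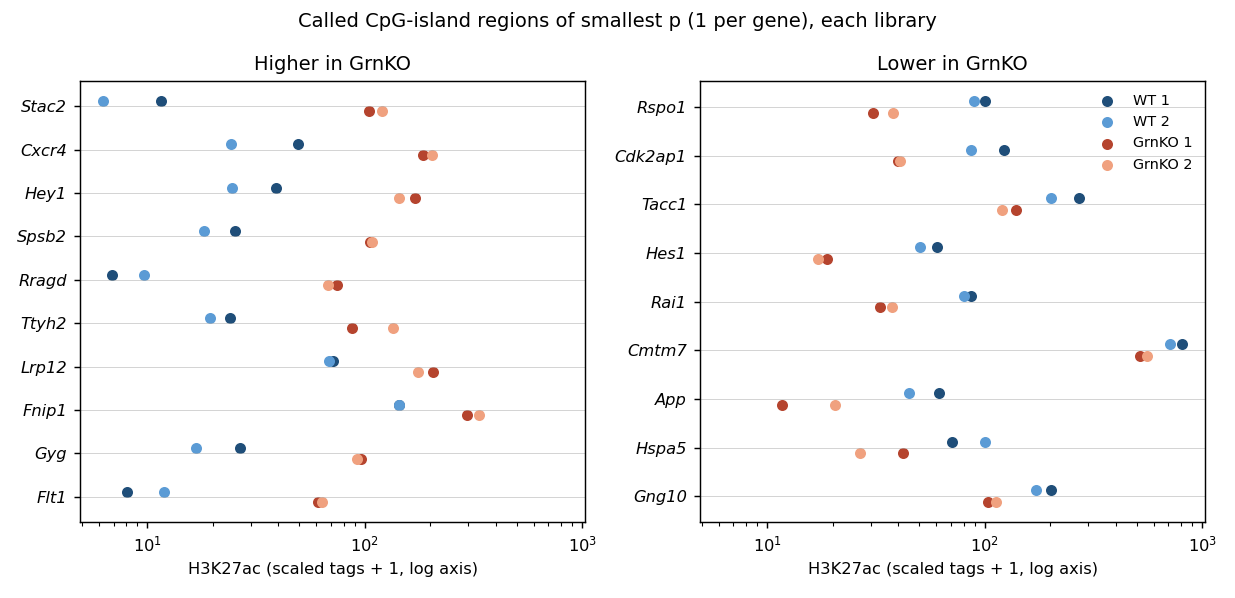
H3K27ac in each library (scaled tags + 1, log axis) at the 10 higher (left) and 9 of the 10 lower (right) called CpG-island regions of smallest p, 1 per nearest gene; blue points are the 2 WT libraries and red points the 2 GrnKO libraries. Rows were chosen among calls whose genotypes do not overlap; the log2 changes run from 1.13 to 3.72 on the left and from -1.76 to -0.50 on the right.

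The 10 lower members of smallest p, again 1 window per gene, had log2 changes from -1.76 to -0.50, and 9 of them are described here. The first was in intron 1 of Rspo1, an enhancer of Wnt signalling (chr4:124989850-124990650), with 99.7 and 88.3 scaled tags in WT against 29.7 and 36.9 in GrnKO and a log2 change of -1.47 ± 0.28 (SE) (limma adjusted p = 0.00234). Hes1, a repressor downstream of Notch like Hey1, had 59.4 and 49.5 in WT against 17.8 and 16.1 in GrnKO in intron 3. A different Hes1 window, 1607 bp upstream of the start (chr16:30063350-30064150), was called higher, with 108 and 144 in WT against 204 and 191 in GrnKO (log2 change 0.66, limma adjusted p = 0.0375), so the 2 windows of this gene moved in opposite directions. App encodes the amyloid precursor protein, and its first intron (chr16:85173021-85173821) had 61 and 43.7 scaled tags in WT against 10.7 and 19.6 in GrnKO, a log2 change of -1.76 ± 0.41 (SE). The fall at App was the largest of the 10 on the log2 scale. Hspa5 encodes BiP, the main chaperone of the endoplasmic reticulum, and had 70 and 99.5 in WT against 41 and 25.8 in GrnKO. Cmtm7, the strongest island in WT, fell least, by 0.50 on the log2 scale, from 811 and 708 to 515 and 555. The other 4 were Cdk2ap1, a cell-cycle regulator, Tacc1, a coiled-coil protein, Rai1, a chromatin-associated factor, and Gng10, a G-protein subunit, with log2 changes from -1.36 to -0.79.

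Some lower calls did not pass without 1 GrnKO library, in fits where the lone GrnKO pool is assumed to vary like the WT pair. Without GrnKO replicate 1 the limma adjusted p rose to 0.122 at Rai1, 0.230 at Cmtm7, 0.154 at App and 0.229 at Gng10, with log2 changes of -1.14, -0.43, -1.34 and -0.71. Without GrnKO replicate 2 it rose to 0.107 at Tacc1, 0.0523 at Hes1, 0.176 at Hspa5 and 0.0898 at Gng10, with log2 changes of -0.74, -1.54, -0.995 and -0.84. With the authors' scaling Tacc1, Cmtm7 and Gng10 no longer passed, at adjusted p of 0.152, 0.627 and 0.231. Rspo1 and Cdk2ap1 passed under all of these settings.

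Gene groups were read through 1 member per gene, the one nearest the start within 1000 bp. Over all tested members the shares to set these counts against are 4.20% higher and 1.42% lower, and the median change is 0.02. Genes of mTORC1 and of the MiT/TFE factors, which control lysosome formation, had 6 tested members, of which 4 rose and 0 fell, with a median log2 change of 1.02. Beside Rragd and Fnip1 these were Rragc, a second Rag GTPase, with 79 and 79.9 scaled tags in WT against 185 and 169.8 in GrnKO, and Tfeb, the master transcription factor of lysosomal genes, with 131 and 88.8 in WT against 209.9 and 199 in GrnKO. The 2 that did not pass were Rheb, the activator of mTORC1, with 119 and 99 in WT against 84.9 and 92.5 in GrnKO, and Mlst8, a subunit, with 64.9 and 68.6 in WT against 58 and 61.6 in GrnKO. Of 7 lysosomal genes tested, 2 rose and 0 fell, with a median of 0.39. Mcoln1, the lysosomal calcium channel, had 25.8 and 21.7 in WT against 60.5 and 63.4 in GrnKO, and Atp6v0e, a subunit of the proton pump, had 77 and 74.6 in WT against 131 and 142 in GrnKO. The cathepsin genes Ctsb and Ctsl had positive changes of 0.35 and 0.35 that did not pass. Without GrnKO replicate 1 Mcoln1, Atp6v0e and Tfeb had adjusted p of 0.158, 0.170 and 0.103 by limma, and without GrnKO replicate 2 Mcoln1 and Atp6v0e had 0.164 and 0.262.

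Genes of glycolysis and the hypoxia response had 11 tested members, 2 higher and 0 lower, with a median log2 change of 0.48. Pkm, which encodes pyruvate kinase, had 104 and 109.7 scaled tags in WT against 214 and 200.5 in GrnKO, and Hif1a, the hypoxia-inducible factor, had 158 and 140.4 in WT against 244 and 230.2 in GrnKO. The other 9 did not pass. Gapdh, Aldoa, Pfkl, Pfkfb3 and Slc16a3 had changes of 0.48, 0.49, 0.48, 0.40 and 0.49. Pdk1, Hk2, Slc2a1 and Bnip3l had changes of -0.39, -0.12, -0.04 and -0.02. Hif1a was also the only one of 5 tested genes of disease-associated microglia to pass; Cd9 had 163 and 196 in WT against 226 and 233 in GrnKO and Lpl, a lipase, 39.5 and 42.4 in WT against 21.5 and 20.3 in GrnKO. Of 9 tested immediate early and AP-1 genes, Atf3, a stress-induced factor, rose with 40.3 and 46.9 in WT against 123 and 71.7 in GrnKO. Leaving out GrnKO replicate 1 brought the limma adjusted p to 0.0863 at Pkm, 0.289 at Hif1a and 0.588 at Atf3, and leaving out GrnKO replicate 2 brought it to 0.149 at Hif1a.

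Other groups had few or no calls. None of 6 homeostatic microglial genes passed; Mef2a had 613 and 523 in WT against 537 and 563 in GrnKO and Tgfbr2, a receptor of TGF-beta, 497 and 541 in WT against 436 and 546 in GrnKO, with a median change of -0.13 for the group. None of 10 ribosomal protein genes (Rps9 and Rpl30 the highest), 6 of the respiratory chain (Ndufb7, Cox5a), 3 of the proteasome (Psma3, Psmd11), 4 of sterol metabolism (Srebf1, Fasn), 6 of NF-kappaB and interferon signalling (Irf5, Nfkbiz), 5 of the cell cycle (Mdm2, Rbl2) or 2 imprinted genes (Gnas, Inpp5f) passed. Their medians lay between -0.28 and 0.79, the highest for the sterol genes. Over 1000 bp from a start, 1 of 2 tested members of the sterol list and 1 of 7 of the NF-kappaB list were called higher, and 0 lower. Of 10 stress and autophagy genes, Hspa5 was the only call. Of 22 chromatin regulators, Kdm2b, which encodes a demethylase whose CXXC domain binds unmethylated CpG, was the only call, with 133 and 128 scaled tags in WT against 69.9 and 71.5 in GrnKO (log2 change -0.88 ± 0.22 (SE), limma adjusted p = 0.0157). It did not pass with the authors' scaling (0.179), without GrnKO replicate 1 (0.201) or without GrnKO replicate 2 (0.138).

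**Figure D5:**
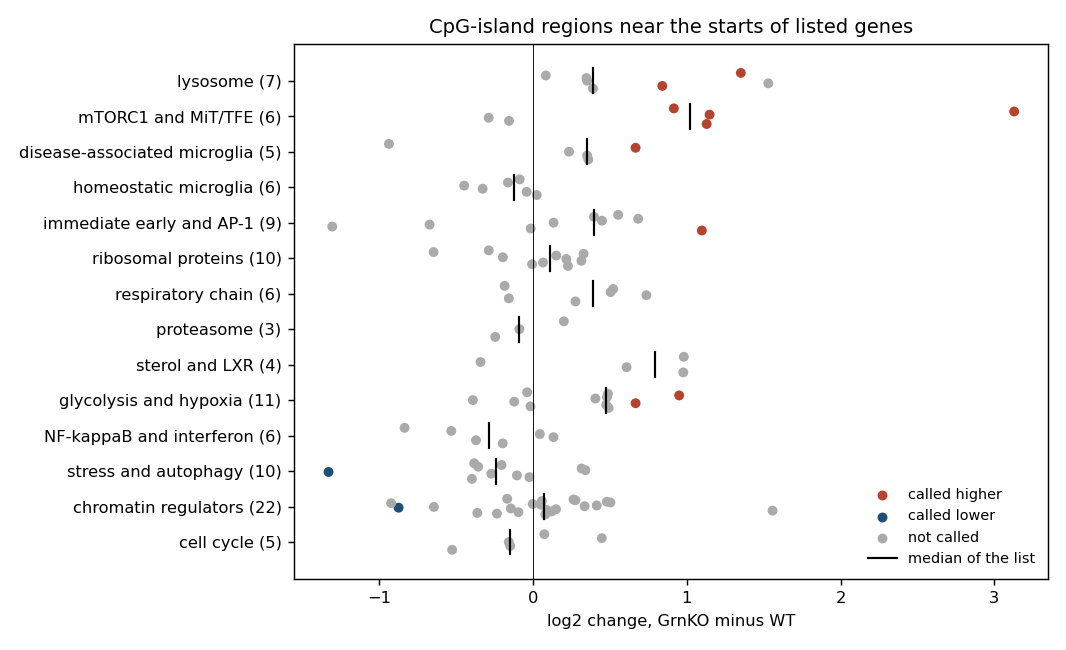
Log2 change (GrnKO minus WT, scaled tags + 1) of the CpG-island region nearest the start of each listed gene, 1 point per gene, for lists with 3 or more tested genes (number in brackets); red points were called higher, blue lower, grey not called, and black bars are medians. The median of the mTORC1 and MiT/TFE list is at 1.02, and 4 of its 6 points were called higher.

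Developmental regulators, textbook targets of Polycomb at islands, had little or no acetylation. Of 9 such genes with a near member, 0 reached the level needed for a test, and 5 had at most 3 tags in every H3K27ac library. Gata2, whose promoter is printed above, had 0 and 0 in WT against 0 and 0.924 in GrnKO. A count of 0 allows up to the 3-tag floor. Lhx9 was the highest, with 12.1 and 0 in WT against 2.83 and 0 in GrnKO. A further 51 members over 1000 bp from a start were assigned to 32 developmental regulators, of which 3 were tested, 0 were called and 26 had at most 3 tags in every library. No gain at these islands was detectable in GrnKO at this depth.

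Among the named members that were called, 1 was at a marker gene of other cells. Flt1 is an endothelial gene, and 4 of the 14 endothelial and mural markers had a promoter region, with summed values, Flt1 included, of 28.5 and 52.9 in WT and 113 and 119 in GrnKO. Of the 4, 2 had enough tags for a test and Flt1 was called. None of the 4 was at 0 in all libraries. Their median, which a single gene sways less than a sum, was also higher in both GrnKO pools (26.6 and 28.0 scaled tags) than in both WT pools (4.70 and 6.81). The nuclei had been sorted as PU.1-positive, and whether endothelial nuclei passed that gate was not tested. Whether nuclei of such cells take part in the change at Flt1 was not tested; more such nuclei and more acetylation per nucleus cannot be told apart in these pools. Slc1a3, an astrocyte marker with a tested member, had 55.9 and 68.4 in WT against 61.4 and 59.5 in GrnKO, and its genotypes overlapped. No border macrophage or monocyte marker had a member near its start. The sums of those markers over promoter regions, given above, were higher in both GrnKO pools than in both WT pools. Whether nuclei of such cells take part in the higher calls was not tested.

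Called islands were compared with the other regions the table assigns to the same gene. Of 78 genes with a near member called higher, 68 had tested regions over 1000 bp from a start outside the islands, and 48 of the 68 (70.6%) had at least 1 such region called higher. Among genes whose near member was not called, 271 of 1273 (21.3%) had one; these genes had a median of 4 distal regions, against 6.5. For 17 genes with a near member called lower, 6 of 16 had a distal region called lower, against 12.3% of genes without a call. Flt1 had 4 of 11 distal regions higher, Cxcr4 6 of 14, and Gng10 5 of 7 lower. Over all tested regions 6.8% were called higher and 2.92% lower. Counted from the distal regions, 48 of 320 genes with one higher (15.0%) had the near island higher, beside 5.01% of all 1357 genes with a tested distal region, and 6 of 164 with one lower (3.66%) had it lower, beside 1.18%.

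A promoter-labelled window that did not overlap the member was tested for 39 of the 78 genes. It had the same sign as the member at 31 of 39 and was itself called higher at 10, among them Rragd (log2 change 3.31 beside 3.13 at the member), Stac2 (3.73 beside 3.72) and Gyg (2.81 beside 2.16). For genes whose near member was not called, such a window was called higher at 21 of 638 and had the member's sign at 380. For genes with a lower member it was called lower at 0 of 7 and had the same sign at 6. At Tfeb the promoter window did not follow, with 0.04 beside 0.92, while 5 of its 23 distal regions were higher. Neighbouring windows of a gene share the same libraries and often the same stretch of acetylated chromatin, so they are not independent measurements.

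Short motifs were searched on both strands in the 300-base promoters. CACGTG, the E-box bound by MiT/TFE factors and by other basic helix-loop-helix proteins, was in 14 of 59 promoters whose near member was called higher (23.7%), in 147 of 1283 whose member was tested and not called (11.5%), and in 7.23% of all autosomal promoters in the table. The longer form TCACGTGA, which contains CACGTG, was in 4 of 59 (6.78%), 27 of 1283 (2.10%) and 0.990%. The 14 genes were Arfgef2, Atp6v0e, Fnip1, Gadd45g, Gyg, Hebp1, Hif1a, Hps1, Mcoln1, Osbpl8, Rragc, Susd1, Tom1 and Zbtb21. In the Fnip1 sequence above it is the run ccaCGtgat. GGGCGG, the GC box bound by Sp factors, was in 88.1% of promoters with a higher member, 78.3% of those with an uncalled one and 36.3% of all. Of 13 promoters with a lower member, 1 held CACGTG, at Cers6. The other motifs are given for higher, uncalled and all promoters in turn. GAGGAAGT, a sequence bound by PU.1, was in 1 of the 59 (1.69%), 2.18% and 3.34%. TGAGTCA, the AP-1 site, was in 2 of the 59 (3.39%), 2.34% and 5.22%. TGACGTCA, the CRE, was in 4 of the 59 (6.78%), 3.82% and 1.92%. CCAAT was in 18 of the 59 (30.5%), 37.0% and 37.8%, and GCATGCGC in 3 of the 59 (5.08%), 7.56% and 2.80%. For TGAGTCA and GCATGCGC the promoters with a higher member lay between the other two shares. A match describes letters in a window and is not evidence of binding.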

How the data were processed

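The 4 H3K27ac and 4 input libraries came from 1 deposited table. The deposited unit is a signal, tags per window at a common depth of 10000000 tags, which the authors computed with HOMER-style tag directories, per the file headers. Bowtie2 and HOMER, with the build mm10, are named in the submitters' processing notes, without roles; the notes also name DESeq2. Multiplying by the header totals gave whole read ends for 100% of values, at 2 ends per tag, within 0.0041 to 0.020 read ends by library. Columns were matched to samples by title.

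Regions were kept by edgeR's filterByExpr (minimum 10 tags) and tested with limma on log2(TMM-scaled value + 1), eBayes with trend, genotype as the only term, over the whole table, with Benjamini-Hochberg adjustment over 80728 regions (R 4.3.3, limma 3.58.1, edgeR 4.0.16; DESeq2 1.42.0 as an alternative). Changes are on that log2 scale, which understates those of low regions. Members and lists were chosen with earlier results of these data known. Named are the 10 members per direction of smallest p with non-overlapping genotypes, at most 1 per nearest gene, up to 4 called genes or else the 2 highest per list, and the 5 highest in WT (some are not reported here); sequences follow these, and others were chosen after their values were seen. Genes are the table's nearest ones. The CpG-labelled regions outside chromosomes 1 to 19 (137) were left out. Replicates are separate pools.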

Additional observations from a re-analysis of the deposited data

How the results depend on the processing

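Limits: 2 pools per genotype set the precision, the inputs were shallow, and regions with few tags could not be tested. The 162 calls (121 higher, 41 lower) stayed within 1.5 times in total under DESeq2 size factors, quantile normalization, scaling to a member median of 0, other pseudocounts, edgeR, DESeq2 and non-overlapping windows, and all 162 kept their sign under each of these except non-overlapping windows, which tests fewer of them. Lower calls alone fell to 8 with the authors' scaling and to 19 with no filter on low tags. With the replicate block, lower calls rose to 79, higher calls were 160 and the total was 239; the numbers do not pair the pools (same-numbered pools are different mice, and their deviations correlated at 0.03). The cause was not tested for these. At an adjusted p under 0.1 there were 256, with 89 lower; with at least a 2-fold change 94, 77 higher and 17 lower. The H3K27ac change minus the input change gave 0 calls in total, 0 higher and 0 lower by limma (160 members, 5.55%, and 7.58% of all regions at unadjusted p under 0.05; 0 of all 80728 regions called), and a median of -0.19, and only 134 of the 162 kept their sign; edgeR and DESeq2 without the inputs gave 156 and 115.

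Leaving out 1 replicate at a time gave 38 to 343 calls, 31 to 238 higher and 7 to 105 lower, the fewest without a GrnKO replicate; the lone pool is then assumed to vary like the other genotype's pair. On the same regions as tested with all libraries, an alternative chosen after seeing the data, calls were 271 (200 higher, 71 lower) and 365 (239, 126) without WT replicates 1 and 2, and 20 (17, 3) and 33 (27, 6) without GrnKO replicates 1 and 2. A fit to chromosomes 1 to 19 and the members away from Grn, both added later too, gave 169 and 160. The median change of members was 0.24 with the authors' scaling and -0.036 with quantile normalization, beside 0.02. The difference between members and other regions in median value, -0.11, was 0.0075 without the filter and -0.020 within equal classes of signal. The share of tags, the excess over input and the comparison of coding promoters moved by less than 1 SD under all their alternatives. Of the 28 named members called, 14 stayed called in every alternative run for them; 24 were called with the authors' scaling, 17 without GrnKO replicate 1 and 20 without GrnKO replicate 2. Of 22 not called, Fasn was called without WT replicate 1 (log2 change 1.83).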

Other observations

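Further members past the threshold fell outside the rule for named genes and were chosen after their values were seen. Among higher members, Smpdl3a, a lysosomal phosphodiesterase, had 41.5 and 39.5 scaled tags in WT against 115 and 118 in GrnKO, and Cstb, an inhibitor of cathepsins, had 70.4 and 90.4 in WT against 179 and 189 in GrnKO. The genotypes did not overlap at either, as at all 121 members called higher. Bhlhe40, a transcription factor of macrophage metabolism, had 130.2 and 123 in WT against 278 and 222 in GrnKO, and Lgals1, a galectin, had 30.9 and 32.7 in WT against 88.5 and 97.1 in GrnKO. Plekhm2, an effector that moves lysosomes along microtubules, had 31.3 and 50 in WT against 110.0 and 116 in GrnKO.

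Islands went from no detected tag to a clear signal at 2 genes. In intron 1 of Plxna2, a semaphorin receptor, the value was 0 and 0 in WT against 28.8 and 30.7 in GrnKO, at least 15.2-fold higher than the mean 3-tag floor of the WT libraries. In intron 1 of Ripk4, a kinase, it was 0 and 0 in WT against 35.4 and 21.9 in GrnKO, at least 14.6-fold higher. Plxna1, the paralogue of Plxna2, had 2.35 and 1.05 in WT against 26.9 and 34.6 in GrnKO. Among lower members, Cers6, a ceramide synthase, had 24.6 and 18.1 in WT against 1.13 and 5.77 in GrnKO, with 1 GrnKO pool under the floor.

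CpG-labelled regions on chromosome X, outside the members, had 2 of 97 tested called (2.06%), 1 in each direction.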
